A study of Mus musculus with 12 samples.

Results

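Lynx1 and 8 other skin genes of the Ly6/uPAR family were followed through 12 mouse wound libraries. The 9 genes were taken as a named list, Lynx1, Slurp1, Ly6d, Ly6g6c, Lypd3, Lypd5, Ly6a, Ly6c1 and Ly6e, and found by matching the Ensembl identifiers of the count files to symbols of the mouse GENCODE M21 annotation. All 9 were present among the 54232 genes of the files, and all 9 passed the filter on low counts that left 18618 genes for testing. Lynx1 was put on the list because of its low level in both patch groups, so its values against the dressing control are given as a description and carry no test.

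The animals of all 3 groups were male C57BLKS/J mice with the Lepr (db/db) genotype, which lack a working long leptin receptor and become obese and diabetic. Wounds were 6 mm full-thickness punches on the back, made at 12 weeks of age and collected on day 10, while the labels give an age of 12.5 weeks. The group called TD (n = 5) had a Tegaderm film dressing alone, Strain (n = 4) a patch inducing about 30% strain, and No Strain (n = 3) a patch without it. Lean and unwounded animals were not analysed here, so every value below is from a diabetic wound. Total counts ran from 20354677 to 25059371 per library. The labels do not say whether any libraries share a mouse, so the p-values measure the spread between these samples. Titles of the TD samples carry other numbers than those of the patch samples, so whatever the numbering stands for and the treatment cannot be told apart.

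Proteins of this family share a fold known from snake neurotoxins, in which disulfide bonds hold a set of finger-like loops, and most are tethered to the outer cell membrane by a lipid anchor. In skin they fall into groups with different roles. Lynx1 and the secreted Slurp1 act on nicotinic acetylcholine receptors, through which keratinocytes respond to acetylcholine; Ly6d, Lypd3 and the less studied Lypd5 and Ly6g6c belong to stratified epithelium; and Ly6a, Ly6c1 and Ly6e are cell surface antigens of progenitor, endothelial, immune and stromal cells that can respond to interferon. Many of the genes sit in 1 cluster: 6 of the 9 lie within 324.5 kb on chromosome 15, and Lypd3 and Lypd5 lie on chromosome 7 and Ly6g6c on chromosome 17 in the class III region of the major histocompatibility complex.

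Against TD, the edgeR quasi-likelihood test with Benjamini-Hochberg adjustment over all genes placed 1 of the 9 genes higher and 1 lower in Strain at an adjusted p under 0.05, namely Ly6e and Lynx1. Over all genes tested, 12.6% were called in that comparison, 6.20% higher and 6.41% lower. In No Strain against TD, 0 of the 9 were called higher and 1, Lynx1, lower, where 17.8% of all genes were called, 9.35% higher and 8.40% lower. Since Lynx1 was chosen from these contrasts, nothing is read from its place in the counts. At an unadjusted p under 0.05 stood 3 of the 9 in Strain, beside 29.5% of all genes, and 2 in No Strain, beside 33.5%. The groups did not overlap for 1 gene in Strain, Lynx1, where this held for 14.6% of all genes (7.47% higher, 7.15% lower), and for 2 in No Strain, Lynx1 and Ly6e, where it held for 26.7% (14.3% higher, 12.5% lower). Counts this near the share of all genes are no result about the 9. The median log2 fold change of the 9 genes was 0.14 in Strain and 0.24 in No Strain, beside 0.02 and 0.00 over all genes. Both comparisons use the same 5 TD libraries.

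Between Strain and No Strain the edgeR test called 0 of the 9 genes and 0.00% of all genes. At an unadjusted p under 0.05 it was 0 of the 9, beside 5.61% of all genes, and DESeq2 and limma-voom also called 0 of the 9. The libraries of the 2 patch groups overlapped for all 9 genes, where they did not for 5.62% of all genes (2.85% higher and 2.77% lower in Strain). The median of the 9 was 0.06, beside 0.01 over all genes.

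**Figure D1:**
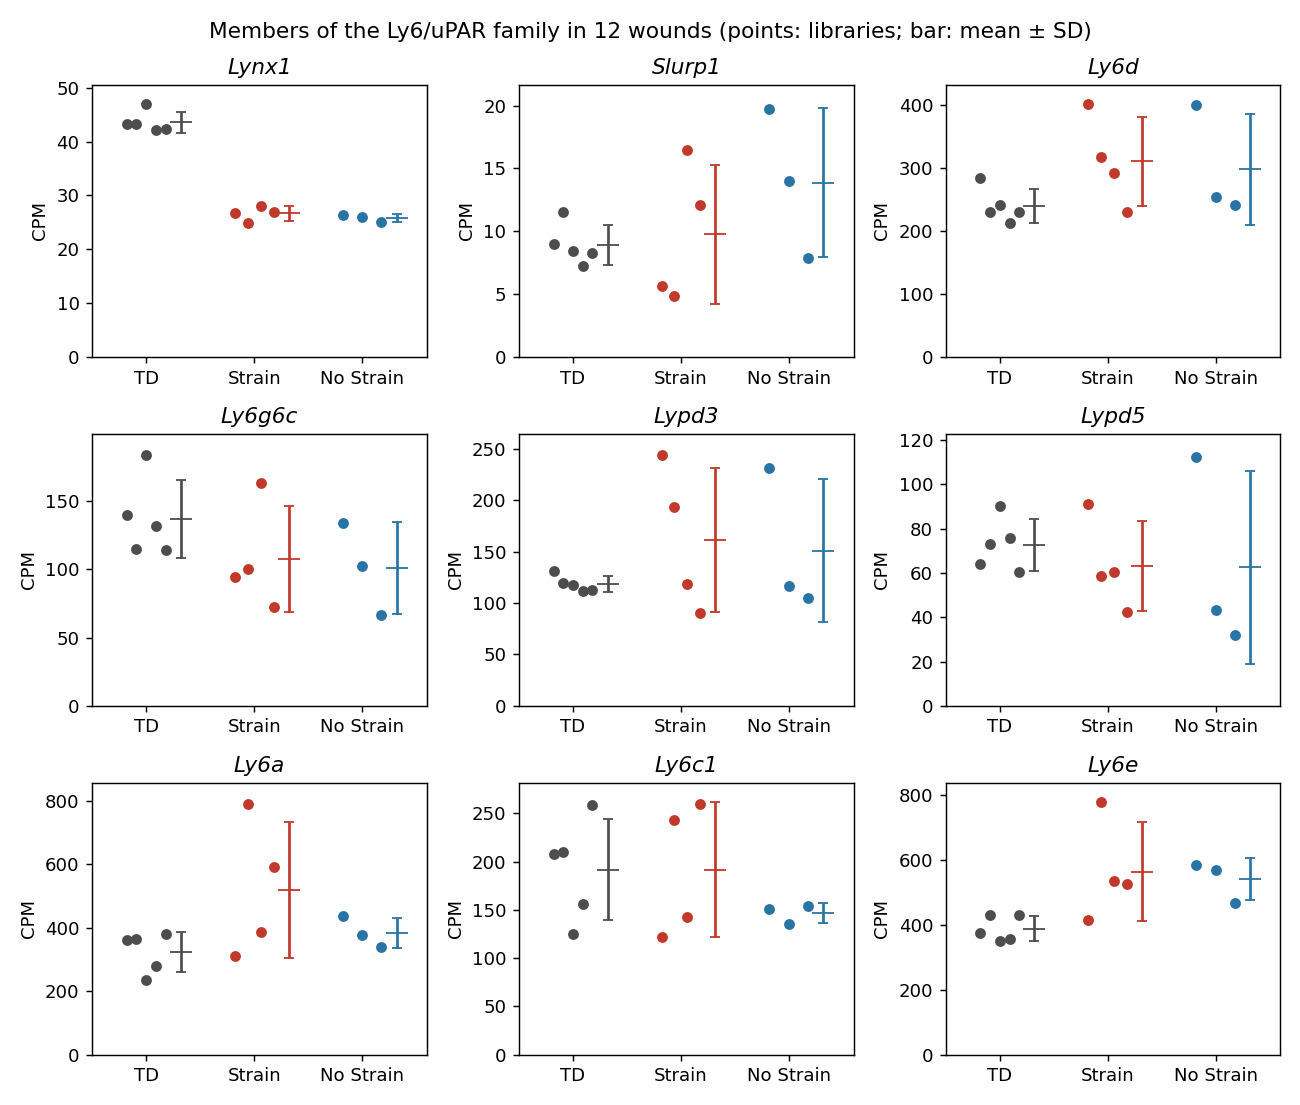
Level of each of the 9 genes in CPM (counts per 1000000 counts of the scaled library, linear axis from 0) in the 12 wounds, by group. Points are libraries and the bar beside each group is its mean ± SD. Lynx1 libraries lie at 42.2 to 47.0 CPM in TD and at 24.8 to 28.1 CPM under both patches, while the other genes overlap between TD and Strain.

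Lynx1 (ENSMUSG00000022594, GRCm38 chr15:74747852-74753046, minus strand) encodes a membrane-anchored protein that binds nicotinic acetylcholine receptors and damps their response. The 5 TD libraries held 43.2, 43.2, 47.0, 42.2 and 42.4 CPM, counts per 1000000 counts of the TMM-scaled library total. The 4 Strain libraries held 26.8, 24.8, 28.1 and 26.9 CPM, and the 3 No Strain libraries 26.4, 25.9 and 24.998 CPM. Every patch library therefore lay below every TD library, with no value between 28.1 and 42.2 CPM, and the 2 patch groups overlapped. The means were 43.6 ± 1.96 CPM (SD, n = 5) in TD, 26.7 ± 1.35 (SD, n = 4) in Strain and 25.8 ± 0.72 (SD, n = 3) in No Strain. The level was 1.63-fold lower in Strain and 1.69-fold lower in No Strain than in TD, or log2 fold changes of -0.71 and -0.76.

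Lynx1 was the steadiest of the 9 genes within each group, though its choice from the contrasts with TD favours a small spread there. Its coefficient of variation over libraries was 4.50% in TD, 5.06% in Strain and 2.79% in No Strain, where the other 8 genes ranged from 6.48% (Lypd3, TD) to 69.5% (Lypd5, No Strain). It rests on 538 to 1179 counts per library. Strain and No Strain differed by a log2 fold change of 0.05 (95% interval -0.09 to 0.18, edgeR adjusted p = 0.961), so the interval holds differences from 0.94-fold to 1.14-fold.

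Several tissue marker lists moved with or against Lynx1 between TD and the patch groups. Over the 12 libraries Lynx1 had a Pearson r of 0.86 with the adipocyte list (0.59 after the group means were taken away). The r was 0.80 with skeletal muscle (0.42) and 0.78 with basal keratinocytes (0.52). Among lists that went the other way, it was -0.93 with neutrophils (-0.61) and -0.84 with endothelium (-0.05). Skeletal muscle genes, 18 of 19 of them tested, were lower in 14 cases in Strain and in 5 in No Strain; their summed level was 7843 to 19355 CPM in TD, 3743 to 6978 in Strain and 5442 to 11531 in No Strain, and none was at 0 throughout. Of 10 adipocyte genes, 7 were lower in Strain and all 10 in No Strain, with sums of 1261 to 2924 CPM in TD, 893 to 1355 in Strain and 681 to 971 in No Strain. In a bulk wound sample, fewer cells of a type and less RNA per cell cannot be told apart. With the mean of the muscle list as a covariate, the log2 fold change of Lynx1 was -0.61 in Strain and -0.70 in No Strain; with the mean of 15 suprabasal keratinocyte genes it was -0.71 and -0.74. Muscle sums of TD and Strain did not overlap, so in that comparison the muscle covariate and the treatment cannot be told apart. The part of muscle, adipocyte, keratinocyte, neutrophil or endothelial content in the Lynx1 values was not tested.

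The genes most like Lynx1 over the 12 libraries, by Pearson r of log2 CPM among 18618 genes, were Gsn (r = 0.987), Retnla (0.978), Fgf11 (0.974), Sspn (0.969) and Cmbl (0.968). These r values carry the step between TD and the patch groups. After each group's mean was taken away they were 0.45 for Gsn, 0.18 for Retnla, 0.11 for Fgf11, 0.54 for Sspn and 0.82 for Cmbl. Cd59a, a family member outside the list that shields cells from complement, followed Lynx1 with r = 0.94 over 12 libraries and 0.78 after the group means were taken away.

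Subunits of nicotinic receptors, the receptor class on which Lynx1 and Slurp1 act, were scarce. The list covers the whole class, and which subunits Lynx1 or Slurp1 bind in these wounds was not tested. Of 16 subunit genes, 9 passed the filter and 1 had no count in any library. Their summed level was 29.2 to 66.3 CPM in TD, 19.7 to 41.3 in Strain and 35.1 to 61.1 in No Strain. Among the 9, the TD means were highest for Chrna1 (13.9 CPM), Chrnb1 (13.4), Chrnd (6.75) and Chrng (5.34). In Strain 2 of the 9 were lower than in TD, Chrne, at 0.74 ± 0.50 (SD, n = 4) against 2.06 ± 0.51 CPM (SD, n = 5), and Chrna1, at 6.68 ± 2.74 (SD, n = 4) against 13.9 ± 4.47 CPM (SD, n = 5), with edgeR adjusted p of 0.0374 and 0.0460. Both encode subunits of the receptor of the neuromuscular junction. In the same libraries 14 of 18 muscle genes were lower, and the part of muscle in the subunit values was not tested. In No Strain 5 of 18 muscle genes were lower, while the log2 fold change against TD was 0.26 for Chrna1 and -1.13 for Chrne. Chrna7, whose receptor is the one most often linked to Slurp1, was at 0.35 ± 0.17 CPM (SD, n = 4) in Strain and 0.27 ± 0.12 (SD, n = 5) in TD (log2 fold change 0.33, edgeR adjusted p = 0.717). No subunit passed in No Strain against TD.

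Slurp1 (ENSMUSG00000022596, chr15:74724318-74728034, minus strand), a secreted protein whose loss in humans causes the thickened palms and soles of mal de Meleda, was the lowest of the 9 genes in CPM. In TD it was at 8.97, 11.5, 8.45, 7.27 and 8.29 CPM. Under the strain patch it was at 5.66, 4.82, 16.4 and 12.1 CPM, and under the other patch at 19.8, 14.0 and 7.85 CPM. Strain thus spread both above and below the range of TD, and No Strain from within it to above it, with a 3.41-fold range in Strain and a 2.52-fold range in No Strain against 1.58-fold in TD. The log2 fold change against TD was 0.14 in Strain (95% interval -0.65 to 0.93, edgeR adjusted p = 0.838) and 0.64 in No Strain (-0.20 to 1.49, adjusted p = 0.273). Without the library Strain 3 the value for Strain turned to -0.25. Slurp2, which encodes a related secreted ligand, followed Slurp1 over the 12 libraries (r = 0.76, and 0.75 after the group means were taken away). Exons of Slurp1 overlap 322 bases of Them6 on the opposite strand, and reads of the pair cannot be told apart without strand.

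Ly6d (ENSMUSG00000034634, chr15:74762056-74763620, minus strand), a surface protein of keratinocytes also used to stage early B cells, had the highest level per length in TD. Its TD libraries were at 285, 230.2, 242, 214 and 230.2 CPM. Strain libraries were at 402, 317, 293 and 231 CPM, and No Strain libraries at 400.0, 255 and 241 CPM. Strain 1 and No Strain 1 were far above TD, while the lowest library of each patch group lay within the TD range. The log2 fold change was 0.37 in Strain (95% interval -0.02 to 0.76, edgeR adjusted p = 0.188) and 0.31 in No Strain (-0.11 to 0.73, adjusted p = 0.283).

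Lypd3 (ENSMUSG00000057454, chr7:24636550-24641118, plus strand) encodes C4.4A, a structural relative of the urokinase receptor found on suprabasal keratinocytes. It was nearly level in TD, at 131, 119.9, 118, 112 and 112 CPM. Strain libraries stood at 244, 193, 118 and 90.4 CPM. No Strain libraries stood at 231, 117 and 105 CPM. Strain 1, Strain 2 and No Strain 1 lay far above TD and the other patch libraries near or under it, and the SD was 70.0 CPM (n = 4) in Strain and 69.8 CPM (n = 3) in No Strain against 7.69 CPM (n = 5) in TD. Log2 fold changes were 0.44 in Strain (95% interval -0.19 to 1.08, edgeR adjusted p = 0.335) and 0.35 in No Strain (-0.34 to 1.03, adjusted p = 0.473). The No Strain value rests on the library No Strain 1, without which it was -0.10. Exons of Lypd3 overlap 225 bases of the antisense gene Gm26550.

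Lypd5 (ENSMUSG00000030484, chr7:24349196-24355109, plus strand) encodes another membrane-anchored protein with Ly6/uPAR domains. In TD its libraries were at 64.0, 73.1, 90.2, 75.9 and 60.3 CPM. Strain gave 91.0, 58.6, 60.7 and 42.3 CPM, and No Strain 112, 43.2 and 32.1 CPM. As with Ly6d and Lypd3, Strain 1 and No Strain 1 were the highest of their groups and Strain 4 and No Strain 3 the lowest, and both groups overlapped TD. The log2 fold change was -0.20 in Strain (95% interval -0.93 to 0.52, edgeR adjusted p = 0.724) and -0.22 in No Strain (-1.01 to 0.57, adjusted p = 0.717). Leaving out No Strain 1 moved the latter to -0.95 (adjusted p = 0.0509), and leaving out No Strain 3 moved it to 0.10. The Strain value turned to 0.13 with the title letter as a covariate and to 0.057 with the muscle list.

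Ly6g6c (ENSMUSG00000092586, chr17:35065388-35070050, plus strand), a family member of little known function, was at 139.7, 115, 184, 132 and 114 CPM in TD. The Strain libraries were at 94.5, 101, 164 and 72.6 CPM and the No Strain libraries at 134, 103 and 66.3 CPM. Patch libraries lay lower on average, yet 1 of 4 Strain and 1 of 3 No Strain libraries were within the TD range. Log2 fold changes were -0.35 in Strain (95% interval -0.90 to 0.21, edgeR adjusted p = 0.397) and -0.44 in No Strain (-1.05 to 0.17, adjusted p = 0.300). With the muscle list as a covariate the Strain value turned to 0.29.

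The promoter sequences of Lypd3 and Lypd5 are shown because the levels of this pair varied together from wound to wound, as given below, though their fitted changes against TD, none of which passed, had opposite signs. Each window is the 250 bases before the RefSeq start on GRCm38.p6, 5′ to 3′ on the gene's strand, for Lypd3 chr7:24636320-24636569 and for Lypd5 chr7:24348946-24349195. Capitals mark matches to the GC box, GGGCGG on either strand, which was found in 32.7% of 32851 promoter windows of this length.
Lypd3: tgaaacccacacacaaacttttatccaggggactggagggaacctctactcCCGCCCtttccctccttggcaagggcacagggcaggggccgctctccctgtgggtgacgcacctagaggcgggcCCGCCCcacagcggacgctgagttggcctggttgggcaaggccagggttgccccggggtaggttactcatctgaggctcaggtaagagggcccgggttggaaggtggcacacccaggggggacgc
Lypd5: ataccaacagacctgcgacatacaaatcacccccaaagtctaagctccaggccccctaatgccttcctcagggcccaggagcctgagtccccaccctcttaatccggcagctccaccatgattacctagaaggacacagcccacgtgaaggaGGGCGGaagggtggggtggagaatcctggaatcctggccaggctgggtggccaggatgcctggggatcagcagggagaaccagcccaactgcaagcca
Lypd3 has 2 matches, the first bases of which lie 199 and 125 bases before the start on the minus strand, and Lypd5 has 1 at 98 bases on the plus strand. An AP-1 site (TGANTCA, 6.75% of windows), a GAS element (TTCNNNGAA, 7.02%), an interferon-stimulated response element core (GAAANNGAAA, 2.98%) and a TATA box (TATAAA, 12.4%) were searched on both strands as well, and none of these letters occurs in either window. In the window of Ly6g6c, TATAAA begins 30 bases before the start. Windows were present for Ly6g6c, Lypd3, Lypd5 and Ly6c1, 4 of the 9 genes; those of Lynx1, Slurp1, Ly6d, Ly6a and Ly6e were not used here.

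Some of the keratinocyte members varied together from wound to wound and others did not. Over the 12 libraries Ly6d and Lypd3 had r = 0.92 (0.93 after the group means were taken away), Lypd3 and Lypd5 had r = 0.63 (0.83), and Ly6d and Lypd5 had r = 0.50 (0.83). Ly6g6c went with Lypd5 (0.68, and 0.63) but little with Ly6d (0.08, and 0.48) or Lypd3 (0.11, and 0.34). Slurp1 had r = 0.04 with Ly6d (-0.03), -0.17 with Lypd3 (-0.25), 0.05 with Lypd5 (0.19) and 0.25 with Ly6g6c (0.48). These are descriptions over libraries that share a library preparation and scaling, with n = 12 and no test. The keratinocyte lists went with different members. The mean of 9 genes of wound-edge keratinocytes had r = 0.87 with Ly6d (0.83 after the group means were taken away) and 0.84 with Lypd3 (0.88), but 0.17 with Lypd5 (0.55) and -0.36 with Ly6g6c (-0.04). The mean of 15 suprabasal genes had r = 0.48 with Ly6d (0.66), 0.52 with Lypd3 (0.61), 0.83 with Lypd5 (0.84) and 0.71 with Ly6g6c (0.75). The mean of 11 basal genes had r = -0.04 with Ly6d (0.60), 0.04 with Lypd3 (0.45), 0.59 with Lypd5 (0.54) and 0.83 with Ly6g6c (0.80). Their part in the values was not tested.

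Between the groups, 2 of the 9 wound-edge genes were higher in each patch group than in TD, the keratin Krt6b and Stfa1, and 0 were lower, with list medians of 0.92 in Strain and 1.08 in No Strain. The summed wound-edge level was 2970 to 4517 CPM in TD, 4012 to 12114 in Strain and 3903 to 12074 in No Strain. Of 15 suprabasal genes 1 was higher in Strain and, in No Strain, 2 were higher and 1 lower, with sums of 6741 to 10235 CPM in TD, 7409 to 9845 in Strain and 2617 to 11735 in No Strain. Of 11 basal genes 2 were lower in Strain and 5 in No Strain, among them Itgb4 and Col17a1, which anchor basal keratinocytes to the basement membrane. The summed basal level, which abundant genes weigh on most, was 6160 to 8013 CPM in TD, 4963 to 11548.5 in Strain and 4895 to 8787 in No Strain. Both patch groups overlapped TD in this sum and reached above and below it. The mean log2 CPM of the 11 genes was 7.73 to 8.14 in TD, 7.25 to 7.88 in Strain and 7.19 to 7.54 in No Strain. By that mean every No Strain library was below every TD library. The list medians of log2 fold change were -0.30 in Strain and -0.47 in No Strain. No gene of the 3 keratinocyte lists was at 0 throughout. The lowest suprabasal sum was that of No Strain 3, in which Lypd5 and Ly6g6c also had their lowest values.

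**Figure D2:**
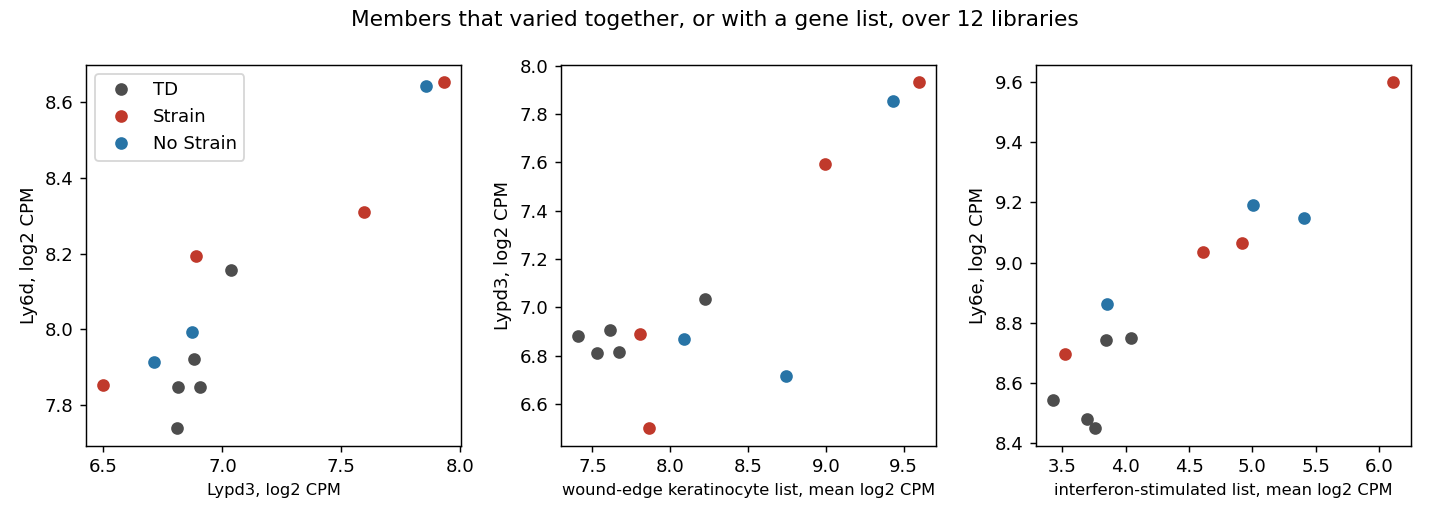
Left, Ly6d against Lypd3; middle, Lypd3 against the mean of 9 wound-edge keratinocyte genes; right, Ly6e against the mean of 16 interferon-stimulated genes, all in log2 CPM, with 1 point per library coloured by group. The points of each panel rise together (r = 0.92, 0.84 and 0.94 over 12 libraries), and the highest values are patch libraries.

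The most alike genes by the same measure were Bdh1 (r = 0.972), Glt1d1 (0.971) and Hmgn1 (0.963) for Ly6d, and Mal2 (0.984), Rbp2 (0.975) and Myo5b (0.973) for Lypd3. They were Nccrp1 (0.956), Ripk4 (0.954) and Jup (0.946) for Lypd5, and Zbtb7b (0.963), Casz1 (0.958) and Iffo2 (0.953) for Ly6g6c. After the group means were taken away these 12 r values were 0.942 to 0.984, against 0.11 to 0.82 for the 5 genes most like Lynx1. For Slurp1 the nearest were 5430419D17Rik (0.872), Gm715 (0.863) and Gm4598 (0.826).

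Ly6e (ENSMUSG00000022587, chr15:74955051-74959905, plus strand), an interferon-induced surface protein that limits the entry of some viruses, was at 373, 430.2, 349.6, 357 and 428 CPM in TD. Strain libraries were at 415, 775, 536 and 524 CPM. No Strain libraries were at 585, 567 and 465 CPM. All 3 No Strain libraries and 3 of 4 Strain libraries were above every TD library, and Strain 1 lay within the TD range. Ly6e rose 1.45-fold in Strain (log2 fold change 0.54, SE 0.16, 95% interval 0.20 to 0.88, edgeR adjusted p = 0.0442). In No Strain the log2 fold change was 0.48 (SE 0.17, interval 0.11 to 0.84), with an adjusted p of 0.0716.

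The call of Ly6e in Strain was a narrow one. It was lost without any 1 of the 5 TD libraries, without Strain 2, Strain 3 or Strain 4, and without No Strain 1 or No Strain 2, with adjusted p from 0.0549 to 0.137. The smallest log2 fold change of these, 0.33, was that without Strain 2. Of 11 other settings the call was kept in 5 and lost in 6, namely library totals alone, limma-voom, no filter, only the 2 groups compared, and the title letter or the muscle list as a covariate. Over these 11 settings the adjusted p ran from 0.0120 to 0.790 and the log2 fold change from 0.32 to 0.56, with the smallest change and the highest p under the muscle covariate. In No Strain the adjusted p fell to 0.0430 without Strain 1 and to 0.0242 without Strain 2. Between Strain and No Strain, Ly6e differed by 0.06 (95% interval -0.33 to 0.45, adjusted p = 0.988).

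Ly6e moved with the interferon-stimulated list from wound to wound, with r = 0.94 over 12 libraries and 0.92 after the group means were taken away. Of the 16 genes on that list, none at 0 throughout, 2 were higher in Strain than in TD, the guanylate-binding protein Gbp2 and the surface protein Bst2, and 1, Gbp2, in No Strain. Gbp2 was at 207.5 ± 204 CPM (SD, n = 4) in Strain, 177 ± 107 (SD, n = 3) in No Strain and 39.7 ± 13.9 (SD, n = 5) in TD. The list's median log2 fold change was 1.32 in Strain and 1.12 in No Strain, and its sum was 233 to 326 CPM in TD, 253 to 1672 in Strain and 354 to 1005 in No Strain. Strain 2 had the highest sum and the highest Ly6e of the 12 libraries. Slfn8 (r = 0.980), Lgals3bp (0.979) and Zc3hav1 (0.977) were the genes most like Ly6e. The part of an interferon response, or of the immune cell lists given below, in the Ly6e values was not tested.

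Ly6a (ENSMUSG00000075602, chr15:74994877-74998031, minus strand), known as Sca-1 and used to mark stem and progenitor cells and subsets of fibroblasts, was at 363, 366, 234, 278 and 379 CPM in TD. In Strain it was at 310.2, 789.5, 386 and 592 CPM, and in No Strain at 436, 376 and 339 CPM. Strain 2 and Strain 4 were far above all TD libraries, Strain 3 slightly above and Strain 1 within the TD range; in No Strain, 1 of 3 was above. The log2 fold change was 0.68 in Strain (SE 0.25, 95% interval 0.14 to 1.22, edgeR adjusted p = 0.0931) and 0.24 in No Strain (-0.35 to 0.83, adjusted p = 0.567). Without Strain 1 the adjusted p for Strain was 0.0392 (log2 fold change 0.86), and DESeq2 gave 0.0451 on all libraries. These were the settings most in favour of a call. Over the 11 other settings the log2 fold change went down to 0.21 and the adjusted p up to 0.930. Leaving out 1 library took them to 0.40 and 0.317 at the other end. Strain and No Strain differed by 0.44 (95% interval -0.19 to 1.06, adjusted p = 0.895). The most alike genes were C1s1 (r = 0.918), Inpp1 (0.917) and Ppil4 (0.903).

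Ly6c1 (ENSMUSG00000079018, chr15:75044018-75048830, minus strand) encodes a Ly-6C antigen carried by endothelium and by monocytes and T cells. It was at 208, 210.3, 125, 156 and 259 CPM in TD. The Strain libraries were at 122, 243, 143 and 259 CPM, and the No Strain libraries at 151, 136 and 154 CPM. Strain covered nearly the same range as TD, and all 3 No Strain libraries lay in its lower part. The log2 fold change was 0.00 in Strain (95% interval -0.55 to 0.55, edgeR adjusted p = 0.999) and -0.39 in No Strain (-0.99 to 0.22, adjusted p = 0.359). Ly6c1 and Ly6a varied together across libraries (r = 0.66, and 0.90 after the group means were taken away), as did Ly6a and Ly6e (0.86 and 0.87). The genes most like Ly6c1 were ENSMUSG00000109836 (r = 0.943), Mapk9 (0.943) and Gm35048 (0.904).

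Markers of cells that carry Ly6c1 were higher in part. Of 12 endothelial genes 8 were higher than in TD in each patch group and 0 lower, with medians of 0.55 in both, among them Emcn, Plvap and Robo4. Their sum was 639 to 781 CPM in TD, 835 to 1186 in Strain and 903 to 1062 in No Strain, with no overlap between TD and either patch group and none of the 12 at 0 throughout. Of 12 monocyte and macrophage genes 3 were higher in Strain and 4 in No Strain, with sums of 2270 to 5002, 4304 to 7514 and 4868 to 7532 CPM in TD, Strain and No Strain. Of 11 T and NK cell genes 5 were higher in each, and of 7 plasma and B cell genes 0 were called in either. Over the 12 libraries the r of Ly6c1 was 0.08 with the endothelial list (0.49 after the group means were taken away), 0.11 with the monocyte list (0.46) and 0.68 (0.65) with 12 fibroblast genes, of which 0 were called in Strain and 2 were lower in No Strain. The part of these cells in the Ly6c1 values was not tested.

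**Figure D3:**
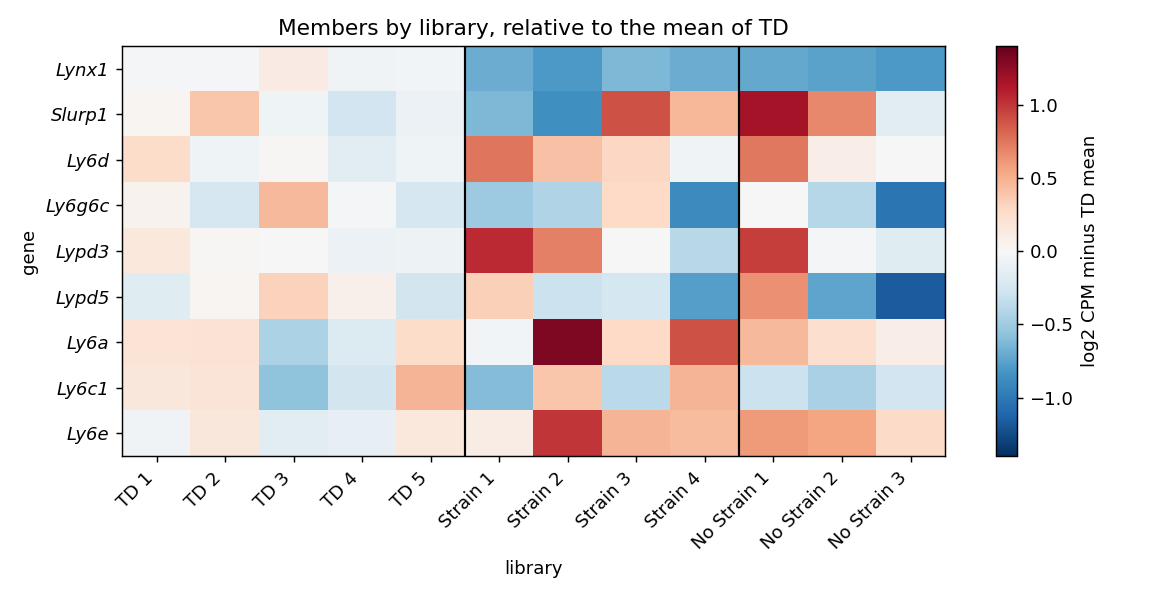
Difference of log2 CPM from the TD mean for the 9 genes (rows) in each of the 12 libraries (columns), red above and blue below. Lynx1 is below the TD mean in all 7 patch libraries. Ly6e is above it in all 7, and each of the other genes differs in sign among libraries of at least 1 patch group.

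Ly6c1 can be set beside its near copy Ly6c2, the Ly-6C gene of inflammatory monocytes, which was higher under both patches. Ly6c2 was at 4.28, 7.11, 7.81, 4.48 and 4.21 CPM in TD. It was at 6.86, 70.8, 37.3 and 22.3 CPM in Strain and at 51.3, 29.6 and 24.7 CPM in No Strain. Of the 7 patch libraries, Strain 1 overlapped TD and the other 6 lay above it. The log2 fold change of Ly6c2 was 2.62 in Strain (SE 0.53, edgeR adjusted p = 0.0132) and 2.65 in No Strain (SE 0.55, adjusted p = 0.0103). Across libraries Ly6c2 went with Ly6e (r = 0.90, and 0.79 after the group means were taken away) and not with Ly6c1 (-0.05 and 0.31). Of the 50-base stretches in Ly6c1 transcripts, 32.8% occur in another gene, 21.5% in Ly6c2, and 13.9% of those of Ly6c2 occur in Ly6c1; for Ly6a the shared portion is 19.0%, mostly with Ly6c1. How reads that match several genes were counted is not given, so the levels of these 3 genes are uncertain.

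The promoter windows of the pair are printed because these near copies lie in the same cluster and gave unlike values against TD, a difference that was not tested. They are RefSeq windows of 250 bases before the start on GRCm38.p6, minus strand, at chr15:75048838-75049087 for Ly6c1 and chr15:75111972-75112221 for Ly6c2, and capitals mark the longest run of bases they share.
Ly6c1: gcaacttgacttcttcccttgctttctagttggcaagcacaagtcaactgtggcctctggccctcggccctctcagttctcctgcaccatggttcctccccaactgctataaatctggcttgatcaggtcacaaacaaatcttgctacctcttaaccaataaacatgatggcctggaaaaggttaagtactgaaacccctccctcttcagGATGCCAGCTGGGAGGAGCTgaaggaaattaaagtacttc
Ly6c2: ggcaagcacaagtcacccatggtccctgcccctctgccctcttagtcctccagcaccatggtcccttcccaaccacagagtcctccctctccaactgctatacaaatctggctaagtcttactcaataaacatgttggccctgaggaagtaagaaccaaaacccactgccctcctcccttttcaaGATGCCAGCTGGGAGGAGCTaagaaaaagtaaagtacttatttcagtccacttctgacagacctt
The shared run is 20 bases long and begins 40 bases before the start in Ly6c1 and 65 in Ly6c2. Aligned end to end the windows were identical in 164 of 284 columns, or 57.7%. This likeness is not particular to the pair: the window of Ly6c1 was identical in 64.6% of columns with that of Ly6f and 58.5% with that of Ly6g, and in 44.1% to 47.4% with those of Lypd3, Ly6g6c and Lypd5, while that of Ly6c2 was identical in 65.9% with Ly6f. TATAAA is found 143 bases before the start in Ly6c1 and not in Ly6c2. The letters of the AP-1, GAS and interferon-response motifs given above are in neither window.

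**Figure D4:**
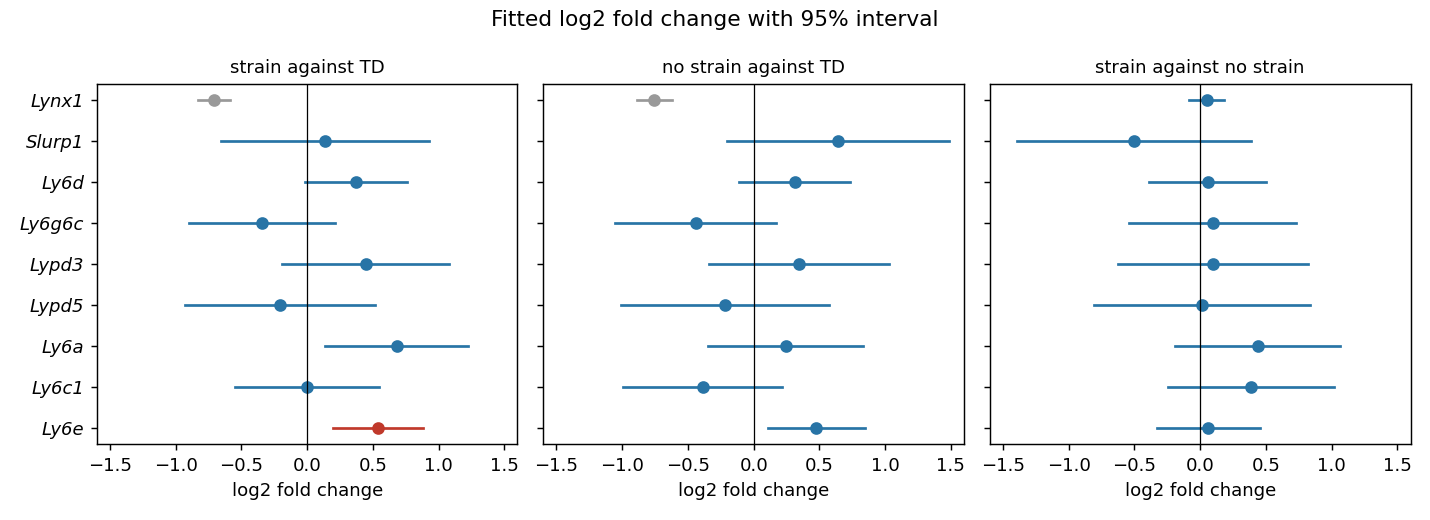
Fitted log2 fold change of each of the 9 genes with its 95% interval for Strain against TD, No Strain against TD and Strain against No Strain. Grey marks Lynx1 against TD, a description; red marks an adjusted p under 0.05, reached by Ly6e in Strain (0.54); blue marks the rest, whose intervals in the third panel all include 0.

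Ordered by level per length, in CPM per kilobase of exon, the genes ran in TD from Ly6d (323 ± 36.6, SD, n = 5) and Ly6a (269 ± 53.3) to Ly6c1 (114 ± 31.0), Ly6e (102 ± 10.3), Ly6g6c (100.3 ± 20.9), Lypd3 (72.0 ± 4.66), Lypd5 (32.5 ± 5.22), Lynx1 (9.35 ± 0.42) and Slurp1 (3.03 ± 0.54). Ly6d and Ly6a overlapped between libraries, as did Ly6c1, Ly6e and Ly6g6c, while Lypd3, Lypd5, Lynx1 and Slurp1 were each apart from their neighbours. In Strain, Ly6a (431 ± 179, SD, n = 4) and Ly6d (418 ± 95.4) stood in the opposite order and overlapped. In No Strain, Ly6d (401 ± 118, SD, n = 3) was above Ly6a (318 ± 40.6), again with overlap. Lynx1 was at 5.72 ± 0.29 in Strain and 5.53 ± 0.15 in No Strain, and Slurp1 at 3.33 ± 1.88 and 4.73 ± 2.03. In Strain the libraries of Slurp1 ran from 1.64 to 5.60, against 5.33 to 6.03 for Lynx1. In No Strain they ran from 2.68 to 6.74, on both sides of the Lynx1 range of 5.36 to 5.67.

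Within the No Strain group 1 library stood at the top and 1 at the bottom for most of the list. No Strain 1 was the highest of the 3 for 8 of the 9 genes, all but Ly6c1, and No Strain 3 was the lowest for the same 8. Of the Strain libraries, Strain 1 was highest for Ly6d, Lypd3 and Lypd5 and lowest for Ly6a, Ly6c1 and Ly6e, and Strain 4 was lowest for Ly6d, Ly6g6c, Lypd3 and Lypd5. TD 3 was highest for Lynx1, Ly6g6c and Lypd5 and lowest for Ly6a, Ly6c1 and Ly6e. Over all 12 libraries the ratio of the highest to the lowest CPM was smallest for Ly6d (1.88) and Lynx1 (1.89) and largest for Slurp1 (4.10).

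The rest of the family was followed through a list of 38 further genes, of which 34 were in the files and 19 passed the filter. Against TD, 3 were higher and 2 lower in Strain, and 5 higher and 2 lower in No Strain, with medians of 0.42 and 0.62. The same 12.6% and 17.8% of all genes apply. Between Strain and No Strain 0 of the 19 passed, 1 had an unadjusted p under 0.05, and DESeq2 and limma-voom called 0. Ly6i was the furthest from TD, at 0.45, 0.41, 1.00, 0.57 and 0.13 CPM there, 1.99, 22.9, 10.4 and 5.66 CPM in Strain and 20.5, 13.6 and 5.67 CPM in No Strain. No patch library of Ly6i overlapped TD, and the log2 fold changes were 4.30 (SE 0.72, edgeR adjusted p = 0.0075) and 4.67 (SE 0.74, adjusted p = 0.0038). Its values followed those of Ly6c2 (r = 0.96, and 0.89 after the group means were taken away).

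Cd59a and Cd59b, which encode the complement-shielding protein CD59, were the genes of the list that fell. Cd59a was at 38.8, 32.8, 45.4, 39.0 and 28.9 CPM in TD, at 19.0, 17.5, 25.9 and 19.4 CPM in Strain and at 22.0, 19.95 and 18.9 CPM in No Strain. Every patch library was below every TD library, and the log2 fold changes were -0.85 (SE 0.14, edgeR adjusted p = 0.0073) and -0.87 (SE 0.16, adjusted p = 0.0057). Cd59b was far scarcer, at 1.08 ± 0.27 CPM (SD, n = 5) in TD, 0.53 ± 0.11 (SD, n = 4) in Strain and 0.53 ± 0.14 (SD, n = 3) in No Strain, with log2 fold changes of -1.03 and -1.01. Its call was lost without TD 3 or TD 4 in both comparisons, without Strain 2 in Strain, and without No Strain 1 or No Strain 3 in No Strain, with adjusted p up to 0.126. With the muscle list as a covariate the log2 fold change of Cd59a was -0.26 in Strain and -0.52 in No Strain. The call was lost there in both comparisons (edgeR adjusted p = 0.722 and 0.077) and kept in 10 of the 11 settings in each.

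Plaur, the urokinase receptor that gives the family its second name, rose in No Strain, from 34.7, 43.5, 41.2, 50.1 and 46.5 CPM in TD to 55.6, 80.7 and 82.1 CPM (log2 fold change 0.75, edgeR adjusted p = 0.0390). In Strain it was at 43.2, 70.4, 39.8 and 78.4 CPM, overlapping TD (0.42, 95% interval -0.03 to 0.88, adjusted p = 0.200), and Strain and No Strain differed by -0.33 (-0.85 to 0.19, adjusted p = 0.896). The call in No Strain was lost without any 1 TD library, No Strain 2 or No Strain 3, with adjusted p up to 0.136. Of the 10 genes of the urokinase system, Plaur among them, 0 passed in Strain and 3 were higher in No Strain, the others being the matrix protein Vtn, at 15.1 ± 2.01 (SD, n = 3) against 7.35 ± 2.16 CPM (SD, n = 5), and the plasmin precursor Plg (log2 fold change 2.74, adjusted p = 0.0278).

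The other 3 called genes were scarce. Ly6g5b, from the same chromosome 17 region as Ly6g6c, was at 2.20 ± 0.72 CPM (SD, n = 4) in Strain and 1.22 ± 0.22 (SD, n = 5) in TD (log2 fold change 0.85, edgeR adjusted p = 0.0390), a call lost without 7 of the 12 libraries, with a log2 fold change of 0.59 without Strain 2. Ly6k was at 0.96 ± 0.27 CPM (SD, n = 3) in No Strain and 0.24 ± 0.13 (SD, n = 5) in TD, or 17 to 28 and 3 to 11 counts. Its call (edgeR adjusted p = 0.0274) was lost without TD 2, TD 3 or TD 5 and without No Strain 1 or No Strain 3. Exons of Ly6k overlap 395 bases of Gm17189 on the opposite strand, and reads of that pair cannot be told apart without strand. Ly6g, the neutrophil antigen, had 5, 3, 1, 0 and 2 counts in the TD libraries, 5, 6, 5 and 9 in Strain and 13, 14 and 40 in No Strain, and passed in No Strain (edgeR adjusted p = 0.0055). Of the 10 neutrophil genes that include Ly6g, none at 0 throughout, 8 were higher in Strain and 7 in No Strain, with sums of 450 to 1632 CPM in TD, 856 to 8607 in Strain and 2038 to 5168 in No Strain; the part of neutrophil number in the Ly6g counts was not tested.

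**Figure D5:**
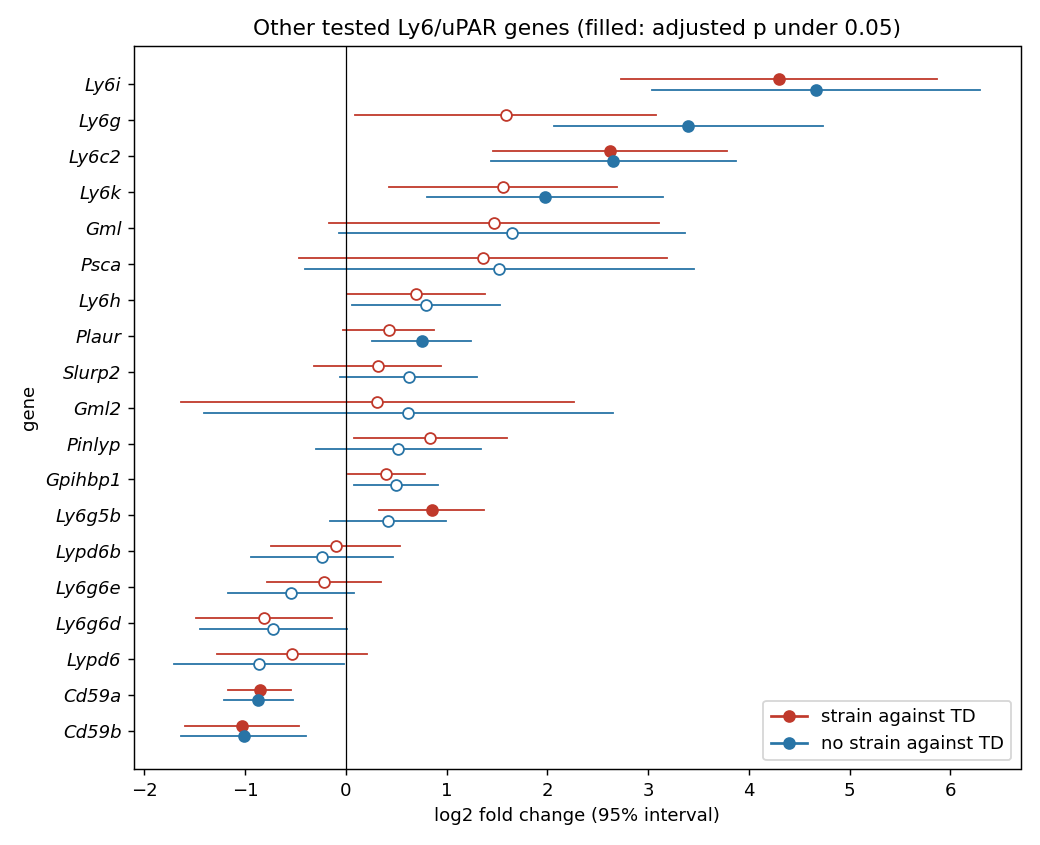
Fitted log2 fold change against TD with its 95% interval for the 19 other family genes that passed the filter, red for Strain and blue for No Strain, filled where the adjusted p was under 0.05. Ly6i (4.30 and 4.67), Ly6g in No Strain (3.40) and Ly6c2 (2.62 and 2.65) lie furthest to the right and Cd59a and Cd59b on the left. The value of Ly6g rests on 0 to 5 counts per TD library.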

How the data were processed

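Values are raw counts per gene, 1 deposited file per library; the labels' protocols give oligo(dT) enrichment of RNA from frozen wound tissue and a NEBNext Ultra library kit. The submitters' processing notes name bcl2fastq 2.17, FastQC, cutadapt, STAR, featureCounts, DESeq2 and the build GRCm38, with no role or order; annotation release, strand setting and the rule for reads matching several genes are not given in the sources used here. The members and gene lists were chosen with earlier results of these data known.

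Genes were filtered with filterByExpr (minimum count 10, total 15), scaled with edgeR's TMM factors and fitted over all 12 libraries with edgeR 4.0.16 (robust quasi-likelihood, R 4.3.3) in 3 contrasts, Benjamini-Hochberg adjusted over 18618 genes with a threshold of 0.05. Log2 CPM used a prior count of 2, and 3 counts correspond to at most 0.147 CPM. Intervals of fold changes are 95% intervals from that fit, and their coverage was not tested. On simulated counts with a dispersion of 0.05 the fit called 74% of changes of 1 log2 unit in Strain against TD. The figure was 68% in No Strain against TD and 50% between the patches, and 95% to 100% for changes of 2 log2 units. Every gene was simulated with that dispersion. Coefficients of variation of the 9 within groups ran from 2.79% (Lynx1, No Strain) to 69.5% (Lypd5, No Strain). These shares therefore do not give the recovery for any 1 of the 9, and recovery for the more variable genes was not tested. Total counts, and so counting error, were similar over libraries. Replicates were numbered in accession order. The 19 replicate pairs differed by more than sampling noise (chi-square per degree of freedom 9.107 to 71.9). Named were all 9 members, family genes past the threshold against TD, up to 4 genes of other lists, and the 5 (Lynx1) or 3 genes most correlated with each member. Chrna7 and the direction counts by library were added after values were seen. Alternatives were 2 other scalings, DESeq2 1.42.0, limma-voom 3.58.1, 2 other filters, fits on 2 groups, no robust weights, 3 covariates and leaving out each library. Symbols and exon lengths are from GENCODE M21, and promoter sequences from RefSeq; the proteins planned for display were not analysed here.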

Additional observations from a re-analysis of the deposited data

Results flagged for a closer look

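In TD the third library stood apart for Lynx1. Its log2 CPM was 5.56 where the next library was at 5.44, and that gap was 0.782 of the range of the 5 TD libraries, above the limit of Dixon's test for 5 values. It was 1 of 18 group values screened in groups of 4 or more libraries, and chance flags about 1 in 20 such groups. Without this library the log2 fold changes of Lynx1 against TD stayed within -0.75 to -0.68 in Strain and -0.77 to -0.73 in No Strain, the range over leaving out any 1 library.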

How the results depend on the processing

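Of the 9 genes, 2 were called in Strain against TD. The number was 1 with library totals alone, limma-voom, no filter, only the 2 groups compared or the title letter as a covariate, 0 with the muscle covariate, 3 with DESeq2, which also called Ly6a, and 1 to 3 when 1 library was left out. In No Strain it was 1, 2 with DESeq2 or only the 2 groups compared, and 1 to 2 without 1 library. The other family genes called were 5 in Strain, 3 with no filter, a mean of at least 5 CPM or the title letter, 0 with the muscle covariate, 6 with DESeq2 and 3 to 6 without 1 library. In No Strain they were 7, 4 with a mean of at least 5 CPM or the title letter, 2 with the muscle covariate and 4 to 7 without 1 library. With the muscle covariate 1 gene of all was called in Strain, against 2349. The share of all genes called under the other settings is not given here, so the counts above are no result about the 9 or the other family genes. Strain against No Strain gave 0 in every setting. Lynx1 kept its direction in every setting, from -0.73 to -0.61 in Strain and -0.82 to -0.70 in No Strain. It was chosen for its low level in these same libraries, so its kept direction and its place in the counts above carry no support.

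Some uncalled values changed sign. In Strain these were Ly6g6c (from -0.35 to 0.29 with the muscle covariate), Lypd5 (from -0.20 to 0.13 with the title letter, 0.057 with muscle) and Ly6c1 (from 0.00 to -0.0071 with DESeq2 size factors, -0.00715 with DESeq2, -0.019 with library totals, -0.11 with limma-voom, -0.014 with at least 5 CPM, -0.13 with the letter, -0.60 with muscle, -0.012 with the suprabasal covariate). In No Strain Ly6a went from 0.24 to -0.0033 with muscle. Between the patches Ly6d, Ly6g6c and Lypd5 were -0.0071, -0.0060 and -0.038 with the suprabasal covariate, Lypd3 -0.025 with muscle, and Ly6e -0.0090 with limma-voom and -0.035 with muscle. The cause was not tested.

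Leaving out 1 library gave ranges that crossed 0 for Slurp1 (-0.25 to 0.36) and Ly6c1 (-0.18 to 0.17) in Strain, Lypd3 (-0.10 to 0.55) and Lypd5 (-0.95 to 0.10) in No Strain, and between the patches for Ly6d (-0.090 to 0.32), Ly6g6c (-0.19 to 0.35), Lypd3 (-0.17 to 0.53), Lypd5 (-0.30 to 0.73) and Ly6e (-0.14 to 0.18). No paired analysis was possible because the title numbers do not repeat between groups. With 3 to 5 libraries a group, the intervals of 6 members in Strain against TD span over 1 log2 unit, so absence of a call does not show equal levels.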
